A study of Mus musculus with 2 samples.

Results

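Cluster 5 is a group of excitatory neurons of the mouse medial prefrontal cortex that carried the marker set of layer 5 extratelencephalic neurons and, above all, the receptor gene Npsr1. Its members were the nuclei that the authors placed in the cluster numbered 5 of 23, and it held 754 of 12739 nuclei (5.92%). The nuclei came from male mice, with 1 library from Npas2 knockout mice and 1 from wild-type littermates, each a pool of tissue from 4 mice taken at zeitgeber time 20, in the dark phase of a cycle with 12 h of light. The sources used here give neither the ages of the mice nor the deleted part of Npas2. Gene expression was given as a mean per cluster over both libraries, and as a mean per library over all clusters, so no value exists for cluster 5 in 1 genotype and nothing below has a replicate check or a test. Each level is the count of a gene per 10000 counts of a nucleus, averaged over nuclei. Its range in parentheses is a 95% interval for counting error only.

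Layer 5 extratelencephalic neurons are the output cells of the cortex that send long axons to the thalamus, midbrain, brainstem and spinal cord. The transcription factor Fezf2 and its partner Bcl11b set their fate during development, and their thick apical dendrites reach the surface of the cortex. Npsr1 encodes the receptor for neuropeptide S, a brainstem peptide that promotes wakefulness. Npr3 encodes the natriuretic peptide clearance receptor, which takes natriuretic peptides out of circulation. L3mbtl4 encodes a protein with domains that bind methylated histones, and Chst8 encodes an enzyme that adds sulfate to sugar chains of glycoproteins.

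Cluster 5 was the most deeply read of the 23 clusters, at an estimated mean of 5286 UMIs (unique molecular identifiers, that is counted molecules) per nucleus. Over all clusters, the libraries labelled knockout and wild type were estimated at 3274 and 4041. In cluster 5, 3 UMIs correspond to a mean of 0.0101, below which a level is at or under the floor of detection. The level of Npas2 itself was 1.39 under the knockout label and 1.29 under the wild-type label, and so was not the lower under the knockout label, a ratio of 1.08 (1.02 to 1.15), so genotypes are named below by label. A tag near the 3′ end may lie outside the deleted part and then checks nothing.

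The marker lists placed cluster 5 among layer 5 extratelencephalic neurons. Of 13 markers of that type, 10 were raised in cluster 5, meaning at least 2-fold over the median of all clusters with a mean of at least 0.05. Their summed level was 15.05, the highest of 23 clusters, followed by cluster 15 at 10.6. Fezf2 was at 0.571 (0.489 to 0.664) in cluster 5, where it was highest, and at 0.485 (0.317 to 0.712) in cluster 15, and these intervals overlap. Bcl11b was at 2.36, between 0.0956 and 2.29 in the 7 other excitatory clusters, and higher in cluster 6 at 3.21, where markers of striatal spiny neurons peaked. By counting error, Bcl11b in cluster 5 overlapped excitatory cluster 15 and also cluster 21. The markers Fam84b, Bcl6, Ldb2 and Slco2a1 were also highest in cluster 5, of which Ldb2 alone stood clear of every other cluster by counting error, while Chrna6 was at 0 and Erg was at 0.00318, both under the floor.

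The markers of other layers peaked elsewhere. The near-projecting list summed to 0.527 in cluster 5 and 41.1 in cluster 15, the layer 6 corticothalamic list to 2.60 and 47.0 in cluster 2, and the layer 5 intratelencephalic list to 3.82 and 24.7 in cluster 0. Markers of inhibitory neurons summed to 0.834 in cluster 5 against 122.6 in cluster 12, with 0 of 8 raised. Oligodendrocyte markers summed to 1.33 against 86.1 in cluster 8, and astrocyte markers to 1.13 against 52.0 in cluster 14. Slc17a7, the vesicular glutamate transporter of cortical excitatory neurons, was at 1.76 in cluster 5, against 0.175 for the sum of Gad1 and Gad2, which make GABA. Slc17a7 was also at 1.06 in cluster 8, where oligodendrocyte markers peaked, and the part of free RNA in such levels was not tested.

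**Figure D1:**
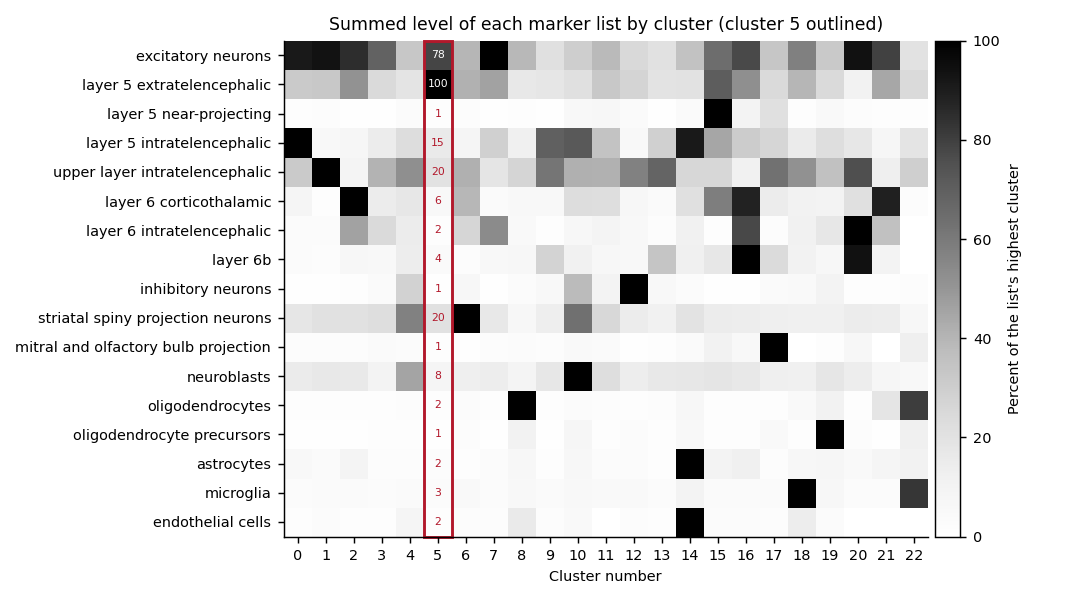
Summed level of 17 cell type marker lists (rows) in 23 clusters (columns), as a percent of each list's highest cluster; the numbers give cluster 5, which is outlined. Cluster 5 is the highest cluster for the layer 5 extratelencephalic list alone, and holds small fractions of the inhibitory and glial lists.

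The general excitatory list was less uniform. All of its 10 members were above the floor of 0.05, none was at least 2-fold higher than the median of the 7 other excitatory clusters (0, 1, 2, 7, 15, 16 and 20), and 4 were at least 2-fold lower. These were Neurod6, a transcription factor, at 0.426 against 1.30, Tbr1, a transcription factor of deep layers, at 0.0858 against 0.201, Nptx1, a secreted synaptic pentraxin, at 0.157 against 0.604, and Slc30a3, the zinc transporter of synaptic vesicles, at 0.0677 against 0.207. Nptx1 and Slc30a3 were lowest in cluster 5 of all clusters, though within counting error of others. Tbr1 lost its 2-fold difference with clusters 3 and 17 added to the reference. Sv2b, a synaptic vesicle protein, was highest in cluster 5 at 3.88 (3.66 to 4.11), against 3.63 (3.44 to 3.83) in cluster 2, and these intervals overlap.

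Over all genes, cluster 5 was compared with that excitatory median, in genes with a mean of at least 0.05 on either side. Of 11445 genes with a median above 0, 558 (4.88%) were at least 2-fold higher in cluster 5 and 521 (4.55%) at least 2-fold lower. The median difference of the 11450 genes above the floor was -0.01 on the log2 scale, where an added 0.01 makes changes of low genes look smaller. Cluster 5 was the highest of the 23 clusters for 166 of these genes (1.45%, or 1.53% of the genes at or above the floor in cluster 5 itself) and the lowest for 160 (1.4%). Against the median of all 22 other clusters, 613 of 11566 genes (5.3%) passed 2-fold upward and 618 (5.34%) downward. These shares are the background for the counts below. For counts against the nuclei-weighted mean of the excitatory reference, that is all its nuclei pooled, the background is 360 higher and 670 lower of 11564 genes. The median counts each reference cluster once, so a gene that is high in the large clusters 0, 1 or 2 has a smaller fold over the pooled nuclei of the reference, which is given where it differs much. Because the authors' clustering used the expression of the same nuclei, all such differences describe the cluster.

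The nearest profile was that of cluster 3. The reference follows an earlier naming of these clusters and leaves out clusters 3, 17 and 21, although Slc17a7 exceeded Gad1 plus Gad2 there too (2.215 against 0.198 in cluster 3). The Pearson correlation across genes was 0.917 with cluster 3, 0.913 with cluster 0 and 0.910 with cluster 1, a description in which genes are not replicates. Of 11587 genes above the floor in either cluster and above 0 in cluster 3, cluster 5 was at least 2-fold higher in 480 and lower in 777. The same counts were 563 and 722 of 11544 genes against cluster 0, and 620 and 779 of 11589 against cluster 1. Npsr1, L3mbtl4 and Fam19a1, described below, had their next highest level in cluster 3.

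**Figure D2:**
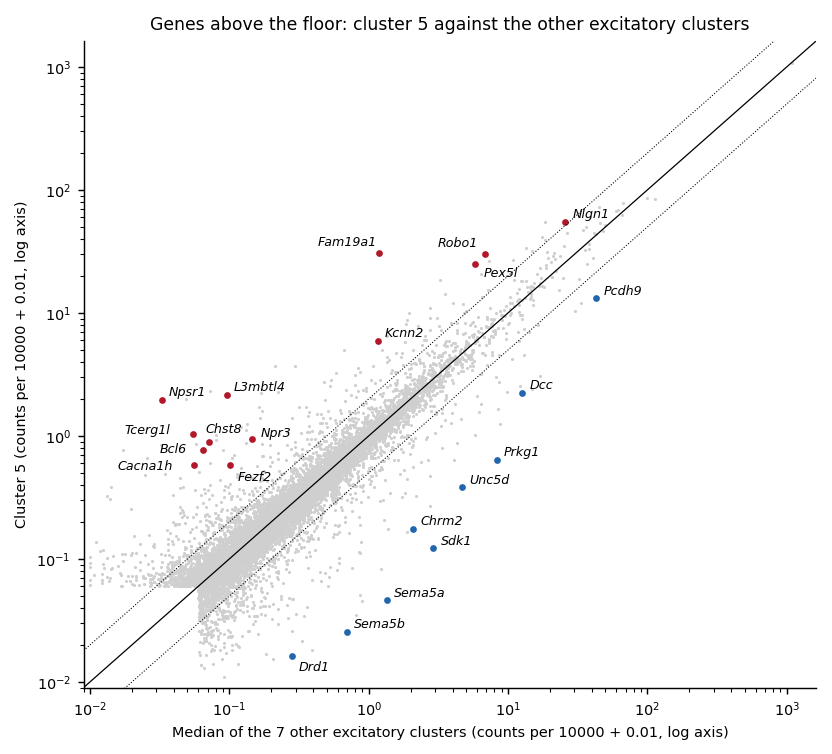
Mean level in cluster 5 (vertical) against the median of the 7 other excitatory clusters (horizontal) for the 11450 genes above the floor, both in counts per 10000 plus 0.01 on log axes; the dotted lines mark a 2-fold difference, and red and blue points are named genes higher or lower in cluster 5. Among the labelled genes Npsr1 lies farthest above the diagonal, and Sema5a, Sema5b and Sdk1 farthest below it.

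Npsr1 (chromosome 9, 24097996 to 24316398, plus strand, mm10) was at 1.96 (1.81 to 2.13) in cluster 5. Among the other excitatory clusters it was at 0.0456 in cluster 0, 0.0111 in cluster 1, 0.0228 in cluster 2, 0.0935 in cluster 7 and 0.604 in cluster 15, and was listed at 0 in clusters 16 and 20. Cluster 3 was second of the 23 clusters at 1.09 (0.98 to 1.21), so that the intervals of the first 2 clusters do not overlap, and cluster 15 came next. The fold over the excitatory median was 86.1, and over all nuclei of those clusters pooled it was 33.8 (27.5 to 41.9). Cluster 5 held 44.6% of the gene's signal in the whole table.

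L3mbtl4 (chromosome 17, 68273797 to 68780086, plus strand) was at 2.16 (1.998 to 2.34) in cluster 5 and between 0.00764 and 0.256 in the other excitatory clusters. The next clusters were 3 at 0.587 (0.506 to 0.677) and 11 at 0.567 (0.43 to 0.734), which cannot be told apart by counting error. The fold over the excitatory median was 25.1, and 43.2% of its signal lay in cluster 5.

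Npr3 (chromosome 15, 11839896 to 11907287, minus strand) was at 0.943 (0.836 to 1.06) in cluster 5 and at most 0.252 in the other excitatory clusters, a fold of 6.96 over their median. The next level was 0.417 (0.238 to 0.679) in cluster 14, where astrocyte markers peaked. Chst8 (chromosome 7, 34674468 to 34812711, minus strand) was at 0.883 (0.779 to 0.996) in cluster 5, which was not its highest cluster. It was at 0.891 (0.636 to 1.22) in cluster 17, where mitral cell markers peaked, and these 2 levels do not differ beyond counting error. Within the excitatory clusters Chst8 stood 14.4-fold over the median.

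**Figure D3:**
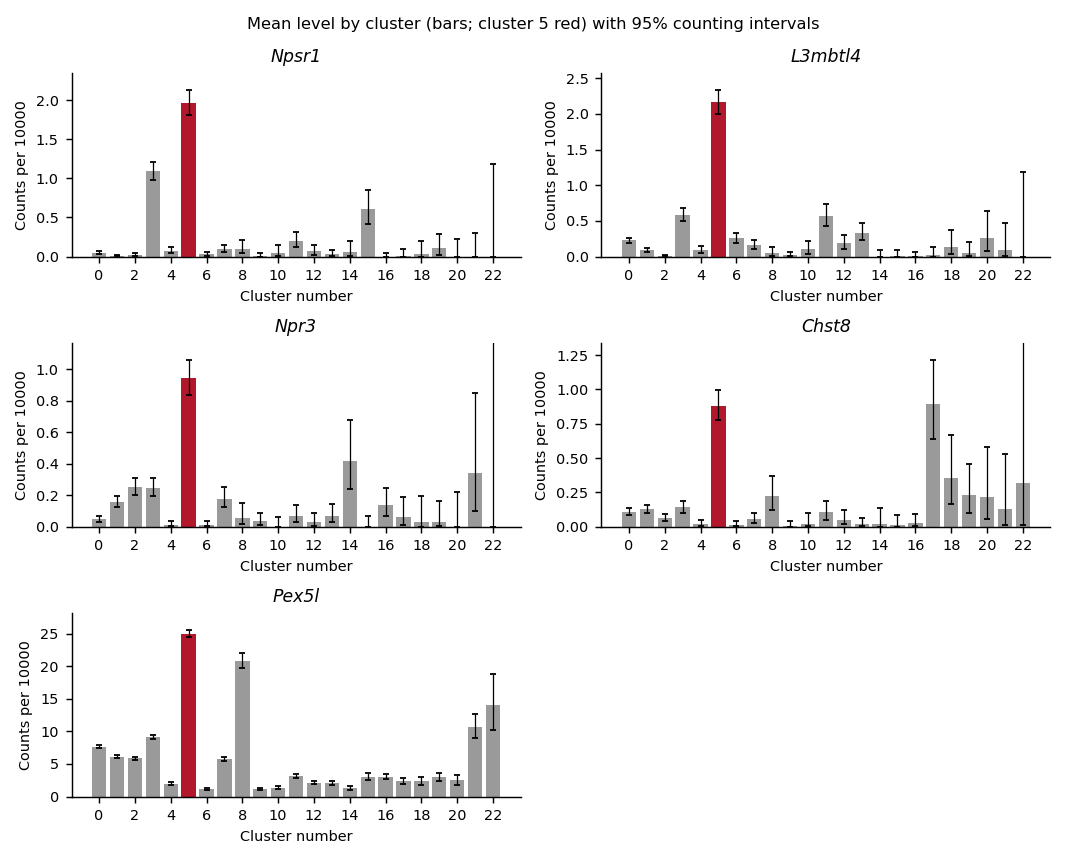
Mean level by cluster of the 4 marker genes and of Pex5l in counts per 10000, with 95% counting intervals; cluster 5 is red, and the intervals of cluster 22 (20 nuclei) run past the axis for Npr3 and Chst8. Cluster 5 is highest for every gene but Chst8, which was as high in cluster 17.

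The start regions of the 4 marker genes were taken from RefSeq (GRCm38.p6, the assembly of mm10), from 250 bases before to 50 bases after the start. They are shown because these genes were high together in cluster 5 and because NPAS2 with its partner BMAL1 binds the E-box CACGTG. The capitals mark CACGTG, and CACGTT in either orientation (CACGTT or AACGTG), the forms searched on both strands, and no match overlapped another.
Npsr1, chr9:24097768-24098067, plus strand: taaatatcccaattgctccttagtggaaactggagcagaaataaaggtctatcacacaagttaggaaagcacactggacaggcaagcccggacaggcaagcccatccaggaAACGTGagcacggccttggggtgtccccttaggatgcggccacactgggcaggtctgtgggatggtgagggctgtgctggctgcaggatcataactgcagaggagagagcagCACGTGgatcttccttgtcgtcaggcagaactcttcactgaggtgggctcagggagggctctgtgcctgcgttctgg
L3mbtl4, chr17:68273547-68273846, plus strand: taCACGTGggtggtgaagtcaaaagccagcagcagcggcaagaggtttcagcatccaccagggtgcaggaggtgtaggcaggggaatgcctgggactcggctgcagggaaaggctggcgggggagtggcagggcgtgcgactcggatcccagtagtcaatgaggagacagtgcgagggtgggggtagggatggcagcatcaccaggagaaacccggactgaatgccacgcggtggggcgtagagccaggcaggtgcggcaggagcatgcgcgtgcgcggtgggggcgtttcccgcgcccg
Npr3, chr15:11907322-11907621, minus strand: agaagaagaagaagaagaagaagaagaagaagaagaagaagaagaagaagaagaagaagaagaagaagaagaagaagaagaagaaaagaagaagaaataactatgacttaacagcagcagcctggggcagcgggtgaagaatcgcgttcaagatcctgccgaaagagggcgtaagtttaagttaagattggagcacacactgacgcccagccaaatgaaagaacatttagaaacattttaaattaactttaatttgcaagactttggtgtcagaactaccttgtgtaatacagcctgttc
Chst8, chr7:34812662-34812961, minus strand: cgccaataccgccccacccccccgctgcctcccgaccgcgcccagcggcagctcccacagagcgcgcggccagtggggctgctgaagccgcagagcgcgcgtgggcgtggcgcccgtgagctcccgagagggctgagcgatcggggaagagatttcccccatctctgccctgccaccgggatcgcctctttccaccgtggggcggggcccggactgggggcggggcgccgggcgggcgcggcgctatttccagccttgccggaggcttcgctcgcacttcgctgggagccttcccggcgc

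The Npsr1 window held AACGTG at -139 and CACGTG at -27, counted from the start to the first base of the match, and the L3mbtl4 window held CACGTG at -248. The Npr3 and Chst8 windows held neither form. Of 32851 RefSeq start windows of the same length, 7.15% held CACGTG, 4.68% held CACGTT and 11.4% held either form. The 4 windows differed in base composition, with a GC content of 56% for Npsr1, 65.7% for L3mbtl4, 39% for Npr3, whose window opens with an AAG repeat, and 75% for Chst8. The median over all windows was 52.7%. A match of letters is a description and does not show binding.

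The 20 genes with the largest fold over the excitatory median, among those at 0.2 or more in cluster 5, included 11 with a name, and the other 9 were gene models without one. Beside Npsr1, L3mbtl4 and Chst8 these were Stac, Adamts2, Fam19a1, Dchs2, Tcerg1l, Cntnap5c, Kctd8 and Bcl6. Fam19a1, which encodes a small secreted protein of the brain, was the most abundant of them at 30.7 (30.1 to 31.3), against a median of 1.18, with cluster 3 next at 26.4 (25.8 to 27.0). Clusters 0 and 1 held 13.04 and 17.4, so that the fold of 26.1 over the median was 3.33 over the pooled excitatory nuclei. Adamts2, a protease that trims procollagens, was at 0.474 against 0.0147, and 8.29-fold over the pooled nuclei. Kctd8, an auxiliary subunit of GABA-B receptors, was at 1.02 (0.905 to 1.14) against a median of 0.0709. Excitatory clusters 1 and 2 were at 0.572 and 0.824, its fold over the pooled nuclei was 2.90 against 14.3 over the median, and 7 clusters were higher, up to 6.07 in cluster 13. The transcriptional repressor Bcl6 was at 0.765 against 0.0547, and cluster 14 overlapped it at 0.706 (0.465 to 1.03). Stac, an adaptor protein, was 74.7-fold over the excitatory median and 19.9-fold over the pooled nuclei at 0.298, yet 3 clusters outside the reference were higher, with cluster 10 at 0.875.

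At the other end, the 10 genes with the largest fold below the excitatory median included 9 with a name. Sema5a and Sema5b, semaphorins that guide axons, were at 0.036 and 0.0155, against medians of 1.34 and 0.689. Large reference clusters were as low. Sema5a was at 0.050 in cluster 0 and 0.0325 in cluster 1, and Sema5b at 0.0308 (0.0189 to 0.0476) in cluster 0, within the interval of cluster 5 (0.00473 to 0.0373). The folds below the median, 37.2 and 44.6, were 15.9 and 18.9 below the pooled nuclei. Drd1, the D1 dopamine receptor, was at 0.00622 (0.000665 to 0.0234), about 2 UMIs and under the floor of 0.0101, against a median of 0.271. Its level in the pooled nuclei of the other excitatory clusters was 21.97-fold (5.77 to 206) that of cluster 5. Sdk1, an adhesion protein of synaptic layers, was at 0.112 against 2.91, a 25.9-fold difference, and was also lowest in cluster 5. Sulf1, which removes sulfate from heparan sulfate, was 32.2-fold below the median and the matrix protein Smoc2 was 17.02-fold below it. By counting error, Sulf1 overlapped excitatory clusters 0 and 15, Smoc2 clusters 2, 15 and 16, and Drd1 cluster 1. Rai14 was 24.9-fold below the median but 12.5-fold below the pooled nuclei, and cluster 1 was as low, at 0.0354 against 0.0355 in cluster 5.

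Receptors and enzymes around the Npsr1 and Npr3 systems were mixed. Of 11 listed genes of neuropeptide S and natriuretic peptide signalling, 7 were above the floor, and besides Npsr1 and Npr3 only Prkg1 differed at least 2-fold. Prkg1, the cGMP-dependent protein kinase that acts below the natriuretic receptors that make cGMP, was at 0.631 (0.544 to 0.728) in cluster 5, the lowest of all 23 clusters, although the interval of cluster 22 (20 nuclei) overlaps. It ranged from 6.91 to 14.5 in the other excitatory clusters, so no cluster of that group overlapped cluster 5, and the fold below their median was 13.1. Npr2, a receptor that makes cGMP, was at 0.433 against 0.302. Nps, the ligand of Npsr1, and Npr1 were listed at 0 in cluster 5, which allows a level of up to 0.0101. Among 37 neuropeptide receptors, 15 passed the floor, of which 3 were at least 2-fold higher and 3 lower, with a median log2 of 0.06. The higher ones were Npsr1, Npr3 and Mchr1. The first 2 are marker genes chosen as leading genes of cluster 5, so their passing was fixed in advance. Mchr1 was within counting error of all 22 other clusters. The lower ones were the opioid receptor Oprd1, the neurotensin receptor Ntsr1 and the PACAP receptor Adcyap1r1, at 0.037 against 0.225, and the cholecystokinin receptor Cckbr was highest in cluster 5 at 0.364, against 0.358 in cluster 16, well within counting error.

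Ion channels and their partners held several clear differences. Pex5l, whose protein TRIP8b is an auxiliary subunit of dendritic ion channels, was at 25.02 (24.5 to 25.6) in cluster 5, against 7.68, 6.10, 5.89, 5.76, 3.06, 3.02 and 2.49 in clusters 0, 1, 2, 7, 15, 16 and 20. Cluster 5 did not overlap the other excitatory clusters, and the fold over their median was 4.34. Pex5l was highest in cluster 5 of all 23 clusters, with cluster 8, where oligodendrocyte markers peaked, next at 20.9 (19.8 to 22.02). Scn8a, a sodium channel of the axon initial segment, was also highest in cluster 5, at 2.77 (2.58 to 2.96) against 2.69 (1.86 to 3.77) in cluster 21, within counting error, and lay within 2-fold of the excitatory median.

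Among 17 calcium channel genes, 16 were above the floor and 2 were at least 2-fold higher. Cacna1h, a low-voltage-activated T-type channel, was at 0.572 (0.49 to 0.665), highest in cluster 5, and between 0 and 0.15 in the other excitatory clusters. The 47 potassium channel genes above the floor included 7 that were 2-fold or more higher and 10 lower, with a median log2 of -0.11, but 1 and 5 with a pseudocount of 0.1. Kcnn2, a calcium-activated channel that slows firing, was at 5.94 (5.66 to 6.22) against a median of 1.15. Kcng1, a modifying subunit, was highest in cluster 5 at 0.213 (0.164 to 0.272), against 0.187 (0.0897 to 0.344) in cluster 15, and these do not differ beyond counting error. Kcnh7, an ERG-type channel, at 28.8 was as high in cluster 2. On the low side were Kcnc2, a fast delayed rectifier, at 0.309 against 1.72, and Kcnh1 at 0.336 against 1.42. Kcnip2, a partner of A-type channels, was also low, at 0.0324 against 0.252. For Kcnc2 and Kcnip2, the counting intervals of excitatory clusters 15 and 16 overlap that of cluster 5.

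**Figure D4:**
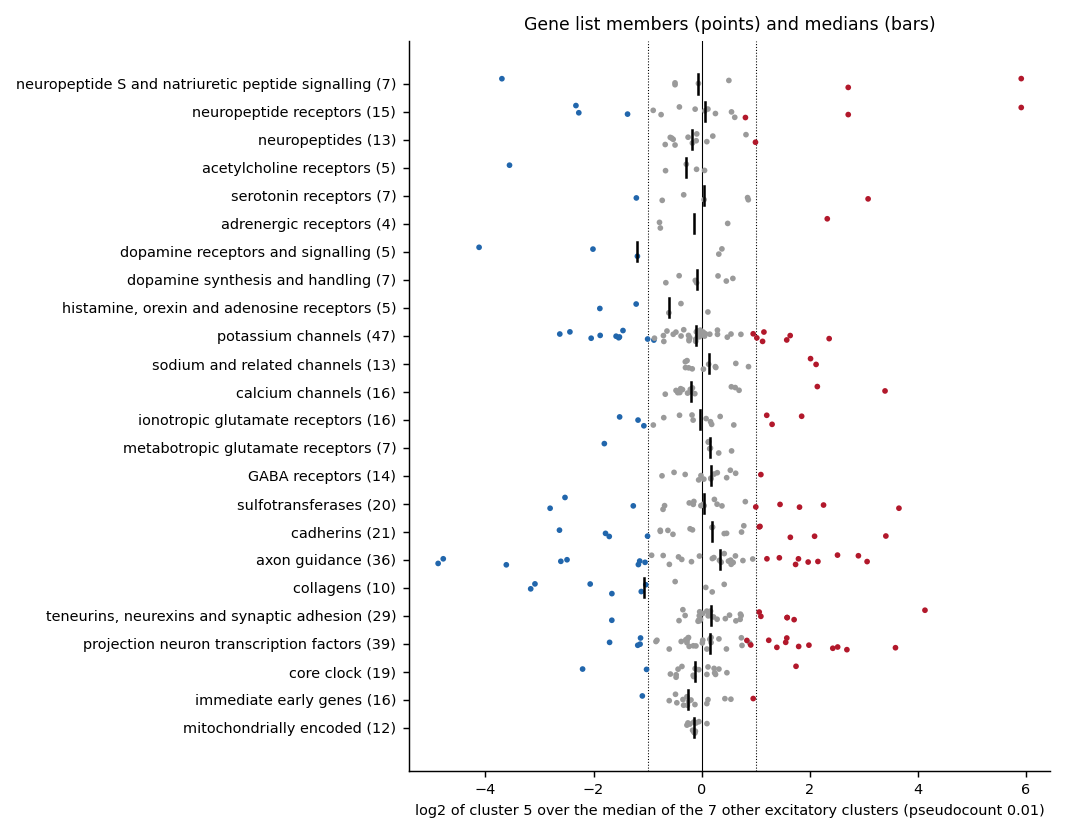
Difference of cluster 5 from the median of the 7 other excitatory clusters (log2, pseudocount 0.01) for members above the floor of 24 gene lists; each point is a gene, red or blue at 2-fold or more without the pseudocount, black bars are list medians, and the number of members is in parentheses. Most list medians lie near 0 while single members differ widely in both directions, and the collagen and dopamine receptor lists have medians below -1.

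Glutamate receptor subunits differed by type. Gria3, an AMPA receptor subunit, was highest in cluster 5 at 20.98 (20.5 to 21.5), with cluster 3 next at 19.5 (19.02 to 19.99), and clusters 1 and 2 were at 17.03 and 17.4, and the remaining excitatory clusters between 6.15 and 12.9. Its fold over their median was 2.30, but 1.59 over their pooled nuclei. Gria4, another AMPA subunit, was at 4.53 (4.29 to 4.78) against a median of 12.98 and a range of 4.86 to 30.5. The kainate receptor subunit Grik2 was at 26.5 against 7.35. The 16 ionotropic subunits above the floor included 3 past 2-fold in each direction. Of 7 metabotropic receptors above the floor, Grm3 alone differed by 2-fold, at 1.82 against 6.38.

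Receptors for modulators followed no single direction. Adra1a, an adrenergic receptor that excites cortical neurons, was at 0.845 (0.744 to 0.956) against a median of 0.161, with cluster 12 higher at 2.02. Htr4, a serotonin receptor, was at 0.499 (0.422 to 0.586) against 0.0503 (9.93-fold, or 4.88-fold over the pooled nuclei), although cluster 15 was at 1.70. Chrm2, an inhibitory muscarinic receptor, was at 0.167 (0.124 to 0.22), below every other excitatory cluster, whose levels ran from 0.278 to 5.81, and was 12.4-fold below their median and 5.56-fold below the pooled nuclei. Hrh1 and Hrh3, histamine receptors, were at 0.030 and 0.0564, against 0.138 and 0.144, and Hrh3 was within 2-fold of the nuclei-weighted mean. Of 10 genes of dopamine receptors and signalling, 5 were above the floor and 3 of those were at least 2-fold lower, which were Drd1, the G protein subunit Gnal at 0.289 against 1.19, and the phosphodiesterase Pde1b at 0.0736 against 0.181. Drd2 at 0.00563 and Drd5 at 0.00327 were under the floor, and Drd3 and Drd4 were listed at 0. Th, the rate-limiting enzyme of dopamine synthesis, was at 0.00156, and Ddc, which completes the synthesis, was at 0.00178, both under the floor in cluster 5.

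Axon guidance genes differed in both directions. The 36 axon guidance genes above the floor included 9 that were 2-fold or more higher and 8 lower, with a median log2 of 0.35, and 6 higher and 9 lower against the nuclei-weighted mean. Robo1, a receptor for Slit ligands, was highest in cluster 5 at 30.2 (29.5 to 30.8), with cluster 9 next at 20.1 and the other excitatory clusters between 1.80 and 17.3. Epha7 was also highest there, at 4.40 against 3.66 in cluster 2, although the counting intervals of clusters 20 and 21 overlap that of cluster 5. Epha6, an ephrin receptor, was at 18.7 against a median of 3.27, a fold of 5.72 that was 2.40 over the pooled nuclei. Ntng1, a netrin relative, was at 4.96 against 0.656, a fold of 7.56 that was 2.67 over the pooled nuclei. Dcc, the netrin receptor, was lower in cluster 5 than in all other clusters, at 2.25 (2.08 to 2.42) against a median of 12.7. Unc5d, a repulsive netrin receptor, was at 0.372 against 4.66.

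All 29 synaptic adhesion genes passed the floor, of which 6 were 2-fold or more higher and 1 lower, with a median log2 of 0.16. Against the nuclei-weighted mean 2 were higher and 2 lower, and Nlgn1, Lrrtm4, Cntnap5a and Cntn3 lost their 2-fold difference. Nlgn1, a postsynaptic adhesion protein of excitatory synapses, was highest in cluster 5 at 55.2 (54.4 to 56.1), against 51.6 in cluster 19. Lrrtm4, a partner of presynaptic heparan sulfate proteoglycans, was at 54.7 against a median of 18.3 (2.99-fold, but 1.81-fold over the pooled nuclei), and cluster 3 was higher at 79.0. Tenm1, a teneurin, was the lower one, at 2.73 against 8.65. Of 21 cadherins and protocadherins, 5 were higher and 4 lower. Cdh22 was highest in cluster 5 at 0.358 (0.293 to 0.433), against 0.299 (0.255 to 0.349) in cluster 1, and these intervals overlap. Cdh7 was at 1.73 against 0.154 (11.2-fold, but 2.38-fold over the pooled nuclei), and Pcdh9 was lowest of all clusters at 13.2 (12.8 to 13.6), against a median of 43.0. Of the 10 listed collagen genes above the floor, none was higher and 6 were lower, with a median log2 of -1.08. The list does not hold every collagen: of 5 others above the floor, named after their values were seen, Col8a1 and Col22a1 were higher, at 0.335 against 0.0574 and 0.135 against 0.0266, and Col16a1 was lower, at 0.108 against 0.403. Col12a1 was at 0.0255 against 0.291, and Col25a1, a membrane collagen of neurons, at 0.292 against 1.25.

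The sulfotransferase list was examined because Chst8 belongs to it. Its 20 members above the floor included 5 past 2-fold upward and 3 downward, or 3 each way against the nuclei-weighted mean. The upward ones include Chst8 itself, a marker gene chosen as a leading gene of cluster 5. Ndst3, which starts sulfation of heparan sulfate chains, was highest in cluster 5 at 6.44 (6.16 to 6.74), against 4.15 in cluster 3 and a median of 1.34. Chst11, which sulfates chondroitin, was at 0.0579 against 0.381, and Hs3st4, a late step of heparan sulfate modification, was at 1.24 against 8.74.

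Among projection neuron transcription factors, 39 passed the floor, with 12 at least 2-fold higher, 4 lower and a median log2 of 0.15. Against the nuclei-weighted mean 7 were higher and 8 lower: Etv1, Foxp2, Nfia, Lhx2 and Emx1 were no longer 2-fold higher, and Foxp2 and Lhx2 had folds below 1. Beside Fezf2, Ldb2 and Bcl6, Tox was highest in cluster 5 at 12.0 (11.6 to 12.4), with cluster 15 next at 9.16. Nfib was at 7.25 against 2.76, within counting error of excitatory clusters 2 and 16, and was higher in cluster 10 at 11.6. Pou3f1 was at 0.357 against 0.047, and its interval overlapped that of excitatory cluster 20. The 4 lower factors were Cux1, Tbr1, Bcl11a at 0.902 against 2.06, and Nr2f1 at 0.177 against 0.599. Cux1, a marker of upper layers, was lowest in cluster 5 at 0.327 but within counting error of clusters 2, 7 and 16. By counting error, Tbr1 overlapped excitatory clusters 0, 1, 15 and 16, Nr2f1 clusters 2, 15 and 16, and Bcl11a cluster 20.

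Clock genes were examined because NPAS2 is a clock transcription factor. Npas2 was at 1.31 (1.19 to 1.45) in cluster 5, seventh of the 23 clusters, against a median of 1.78 and a range of 0.509 to 3.28 in the other excitatory clusters. Of 19 clock genes above the floor, 1 was at least 2-fold higher and 2 lower, with a median log2 of -0.12. Bhlhe40, a repressor of clock targets, was at 0.450 (0.377 to 0.533) against 0.127, and its 0.442 (0.257 to 0.71) in cluster 14 was indistinguishable from cluster 5. Per3, a period gene, was at 0.179 (0.135 to 0.234) against 0.862. It was below every other excitatory cluster, though the counting interval of cluster 16 overlaps. Cry1, a cryptochrome, was at 0.0898 against 0.192, a difference under 2-fold against the nuclei-weighted mean. Clock, at 0.968, and Arntl, which encodes BMAL1, at 1.11, were within 2-fold of their medians of 1.05 and 0.929. Among 16 immediate early genes above the floor, 1 was higher (Egr4) and 1 lower (Arc), near the background shares, with a median log2 of -0.25. Egr4 lost its 2-fold difference against the nuclei-weighted mean, and Arc with clusters 3 and 17 added or with large clusters only. None of 12 mitochondrially encoded genes above the floor differed by 2-fold.

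How cluster 5 divided between the genotypes can only be estimated from the deposited means. In genes read so rarely that a value equals 1 UMI of 1 nucleus, the library of that UMI follows from the genotype columns, and 710 such values put 62.3% of cluster 5 nuclei in the knockout-labelled library, which held 56.2% of all nuclei. The 112 of these values from genes listed in a single cluster gave 61.9%, and a least squares fit over all genes, which assumes equal profiles in both libraries, gave 68.3%. On simulated data with a known share the first method missed by -7.54 to 12.97 percentage points over 10 runs, and was too high in 8 of them. The excess over 56.2% is within those misses, so no difference in the abundance of cluster 5 between the genotypes can be read from it. The estimated depth of cluster 5 nuclei was 4549 UMIs by the knockout label and 6383 by the wild-type label.

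Genes with a large share of their signal in cluster 5 offer the only view of the genotypes inside it, and fewer nuclei and less RNA per nucleus cannot be told apart there. The genotype columns held 11771 genes with an average of at least 0.05 over the 2 columns. Knockout exceeded wild type by 2-fold or more, by label, in 79 (0.671%) and fell below it by as much in 321 (2.73%), with a median log2 of -0.06. For the 22 genes with at least 30% of their signal in cluster 5, the median was 0.28, and 17 were higher and 5 lower, beside 4820 higher and 6951 lower of all 11771. The 22 were instead kept at 0.05 in cluster 5. Some of them are under 0.05 in both genotype columns, as Fam84b is at 0.00659 and 0.0139, so the 2 sets are not alike in level. Some of the 22 are neighbouring or overlapping gene models, so they are not 22 separate loci. Npsr1 was at 0.316 by the knockout label and 0.189 by the wild-type label, a ratio of 1.68 (1.45 to 1.94), but clusters 3 and 15 also read it. L3mbtl4 had a ratio of 1.18 (1.04 to 1.34), Npr3 of 1.23 (1.03 to 1.47), and Chst8 of 1.37 (1.14 to 1.65). Only 43.2%, 35.2% and 35.8% of their signal lay in cluster 5. The library labelled knockout could have given 7.97% to 100% of the cluster 5 signal of L3mbtl4, and 0% to 100% for Npr3 and Chst8. For Npsr1 this range was 28.9% to 100%. The ratios of these 4 genes therefore do not show the genotypes inside cluster 5. Fam84b, at 0.475 (0.213 to 1.01), was the lowest of the 22.

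The 7 genes with at least 50% of their signal in cluster 5 were all gene models without a name, and had a median log2 of 0.49. AI481877, named here after its values were seen because it is the most concentrated, had 69.9% of its signal in cluster 5 and was at 0.204 by the knockout label and 0.119 by the wild-type label, a ratio of 1.72 (1.44 to 2.07). Since the rest of the table caps what other clusters can hold, between 55.4% and 98.4% of its cluster 5 signal came from the library labelled knockout. Gm2682, chosen in the same way as the highest ratio, stood at 3.93 (2.35 to 6.93), and Gm2164, the lowest, at 0.866 (0.759 to 0.989). The 7 genes did not share a direction, as 5 were higher and 2 lower, and some of them are neighbouring or overlapping models.

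**Figure D5:**
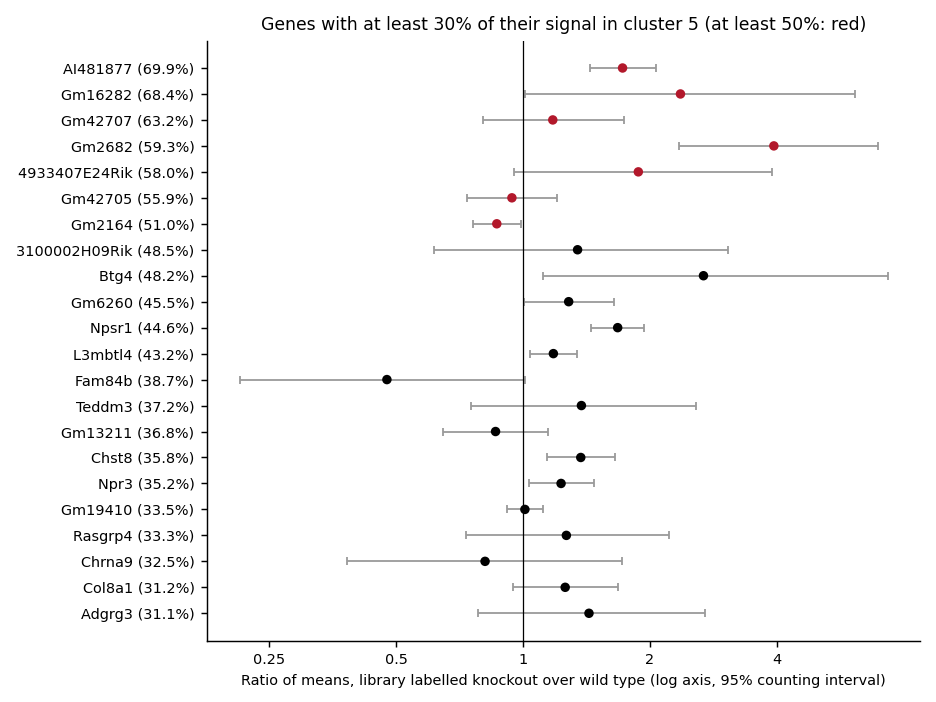
Ratio of the library means, knockout label over wild-type label (log axis), for the 22 genes with at least 30% of their signal in cluster 5, with 95% counting intervals; the share in cluster 5 is in parentheses, and genes at 50% or more are red. Of the 22 ratios, 17 lie above 1 and 5 below, and many intervals include 1.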

How the data were processed

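Nuclei were profiled with a 10x Genomics 3′ kit, per the labels' protocols, in 1 pooled library per genotype. Genes were read against mm10, per the submitters' processing notes. For the aligner, filters, doublets and clustering, nothing is stated in those sources. The authors deposited a normalized signal per gene for 2 genotype columns and 23 cluster columns. Each of the 25 columns sums to 10000 over 31053 genes, so a value is an average over nuclei of a gene's share of the nucleus, scaled to 10000, and is not a count.

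The numbers of nuclei behind the columns follow from the table, since a weighted sum of the genotype columns equals one of the cluster columns, with weights that were whole numbers within 3.26e-05. Depth was estimated from values within 0.0001 of 1 UMI of 1 nucleus. Intervals are exact Poisson intervals for levels and Clopper-Pearson intervals for ratios, on UMI numbers estimated from the harmonic mean depth. They cover counting error only.

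Genes were kept at a mean of 0.05 and called at 2-fold, with no pseudocount for folds and 0.01 for log2 values. The 7 reference clusters follow an earlier naming of the clusters and have Slc17a7 above Gad1 plus Gad2. Reads of overlapping or antisense genes cannot be told apart here. With 1 library per genotype, and clusters drawn from the same expression, no test was run. Positions are from GENCODE release M21, which held 30902 of the gene identifiers.

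The named genes were the 4 markers, the 20 highest and 10 lowest folds over the excitatory median with a level of at least 0.2, every listed gene highest in cluster 5 with up to 4 further members of each list, genes with at least 50% of their signal in cluster 5, and Npas2. Gene models without a name were counted and not described, apart from 3 named after their values were seen. Some genes that the rule takes were left out and are not reported. The markers, lists and members were chosen with earlier results of these data known. The 4 start windows, both motifs, the interval method, the collagens outside the list and the summary of lists were chosen after the data were seen.

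The estimates were tested on simulated data for 31053 genes, in 10 runs with 5 random seeds and 2 levels of rare genes. First versions of this simulation gave shares of cluster 5 nuclei far from the true one, and its settings were changed and several seeds tried before these 10 runs were fixed. All 10 are reported. The 25 numbers of nuclei were recovered in each of the 10. The misses for cluster 5 were -7.54 to 12.97 points for single UMIs (167 to 311 values), -8.98 to 11.4 for genes of 1 cluster and -0.409 to 0.857 for least squares, whose assumption of equal profiles the simulation shares. Harmonic depth was off by -27.6% to 2.35%, and where it is too low the intervals are too wide. Of simulated 4-fold changes, 100% of the higher and 95% to 99% of the lower were called, and 0.753% to 1.03% of unchanged genes. Python 3.11.15, numpy 2.4.6, scipy 1.17.1, pandas 2.3.3 and matplotlib 3.10.9 were used. Alternatives covered the floor, the fold, the pseudocount, the reference, the share estimator, the share threshold, the scaling between libraries and the list summary.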

Additional observations from a re-analysis of the deposited data

How the results depend on the processing

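No paired analysis was possible because the results come from no test and there is 1 library per genotype. Against the median of the 7 other excitatory clusters, 558 genes passed 2-fold upward and 521 downward. These became 300 and 232 with a floor of 0.2, 1617 and 1981 with no floor, 1111 and 1127 at 1.5-fold, 174 and 156 at 4-fold, and 230 and 164 with a pseudocount of 0.1. With the nuclei-weighted mean of the reference, they became 360 and 670. Against all 22 other clusters, 613 higher and 618 lower became 365 and 243 with a floor of 0.2, 1515 and 1727 with no floor, 1241 and 1525 at 1.5-fold, 174 and 188 at 4-fold, 280 and 167 with a pseudocount of 0.1, and 278 and 1251 with the nuclei-weighted mean. The counts with clusters of at least 100 nuclei, or with clusters 3 and 17 added to the excitatory reference, stayed within 1.5 times.

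Some small folds turned with the reference. Against the nuclei-weighted mean, the fold was 0.757 for Inhba, 0.272 for Foxp2, 0.878 for Kcng3, 0.567 for Kcnip1, 0.682 for Chst9 and 0.614 for Lhx2, each above 2 against the median. With clusters of at least 100 nuclei it was 0.390 for Foxp2 and 0.956 for Chst9, and with clusters 3 and 17 added it was 0.816 for Chst9. With clusters 3, 17 and 21 added, a reference chosen after seeing the data, it was 0.937 for Foxp2 and 0.951 for Chst9, and the counts were 507 and 499. These 6 genes count as higher in their lists. Of 156 named or listed genes past 2-fold, 137 kept it with clusters 3 and 17 added, 135 with cluster 21 as well, 136 with large clusters only, 127 with the weighted mean and 115 with a pseudocount of 0.1. Among genes named in the Results, Bcl11b, Nlgn1, Cntnap5a, Lhx2, Tbr1 and Arc lost it with clusters 3 and 17 added. With the weighted mean, Gria3, Nlgn1, Lrrtm4, Cntnap5a, Cntn3, Etv1, Foxp2, Nfia, Lhx2, Emx1, Hrh3, Cry1 and Egr4 lost it. With large clusters only, Gria3, Nlgn1, Cntnap5a, Cntn3, Foxp2, Lhx2, Emx1, Cux1, Mchr1 and Arc lost it. The pseudocount shrinks low levels most. Those lost with it were Tbr1, Slc30a3, Fam84b, Slco2a1, Cux1, Ntsr1, Oprd1, Mchr1, Pde1b, Hrh1, Hrh3, Kcng1, Lhx2, Emx1, Cry1, Egr4 and Arc. Counts of list members under these settings were added after seeing the data.

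The share of cluster 5 nuclei in the library labelled knockout moved from 62.3% to 68.3% with least squares. For the 7 genes concentrated in cluster 5, the median log2 of 0.49 became 0.094 with a pseudocount of 0.1. No gene had 70% of its signal in cluster 5, so that threshold gave no value. A median at least 2-fold either way was found in 4 of 37 lists. They were the list of the 4 marker genes, the layer 5 extratelencephalic list, the collagens and the dopamine receptor list. The marker genes were chosen as leading genes of cluster 5, so the passing of their list was fixed in advance. The number of such lists became 2 with a pseudocount of 0.1 and 2 with no floor. The cause of these shifts was not tested. Levels under 0.0101 in cluster 5 lie under what 3 UMIs give, so that the values of Drd1, Th and similar genes there rest on fewer than 3 UMIs.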
